A study of Arabidopsis thaliana with 24 samples.

Results

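CLV3, POL and KNU are 3 Arabidopsis genes that set the size and the life span of the stem cell pool in shoot and floral meristems. Each was taken through the gene pairing of the platform annotation, which gave 1 probe apiece: CLV3 (AT2G27250), POL (AT2G46920) and KNU (AT5G14010). They are 3 of the 10607 genes that could be tested, and all 3 had their own values on each of the 24 arrays, shared with 0 other probes on any day. The plants were of the genotype 35S:AP1-GR ap1 cal. Every group carries the ap1 and cal mutations and the transgene, whose 35S promoter is active in most tissues and makes AP1 fused to the hormone-binding part of the glucocorticoid receptor. All groups were given 1 µM dexamethasone, which activates the fusion protein, and the groups are days 0, 1, 2, 3, 4 and 5 thereafter, each with 4 sets of tissue pooled from about 25 plants. Each array compared decapped mRNA with total polyadenylated mRNA of the same tissue, with decapped mRNA in Cy5 on 2 arrays of a day and in Cy3 on the other 2.

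Stem cells at the tip of the meristem secrete the CLV3 peptide, which is perceived by CLV1 and related receptor kinases and keeps down WUS, the homeodomain gene that maintains the stem cells. POL is a protein phosphatase of the 2C type that acts downstream of these receptors and, together with its relative PLL1, promotes WUS activity. KNU is a small C2H2 zinc finger repressor that AG switches on in young flowers and that shuts off WUS, so that the floral meristem ends. Removal of the 5′ cap commits an mRNA to 5′ to 3′ decay, and cleavage also leaves 3′ parts without a cap. A ratio of decapped to total mRNA describes the state of a transcript and says nothing of its level.

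All values below are log ratios, likely to base 2 and likely decapped over total, so that a value above 0 marks a transcript richer in the decapped pool. The deposited values carry no statement of base or direction. If they hold total over decapped, each "higher" reads "lower". Medians of the arrays over all probes lay between -0.14 and 0.30, and the median of the 10607 gene means was -0.16. Of 14 markers of shoot meristem, epidermis, phloem, xylem, trichome and leaf mesophyll other than CLV3, 0 were paired with a probe, so the labelled tissue could not be checked with them. In bulk tissue, a change in the cells sampled and a change within cells cannot be told apart.

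The first comparison asked how the share of decapped mRNA of the 3 genes, averaged over the time course, stood against 0. POL was above 0 on every array and far above 0 on average. CLV3 and KNU lay on average slightly below 0 and close to the typical gene. The mean ratio was 2.17 ± 0.70 for POL, -0.31 ± 0.51 for CLV3 and -0.31 ± 0.63 for KNU (SD, n = 24 arrays each). By limma, which was fitted over all genes with a mean per day and a dye term, POL was called higher (95% interval 1.86 to 2.49, adjusted p = 7.74e-11). This p-value treats the arrays as independent. In the alternative fits that left out no array, among them set as a random block and set means, the limma adjusted p of POL was at most 0.00083. CLV3 (-0.54 to -0.07, adjusted p = 0.0208) and KNU (-0.58 to -0.04, adjusted p = 0.0345) were called lower. Of all genes tested, 29.7% were higher and 43.5% lower in this comparison, so a call in either direction was common. The calls of CLV3 and KNU were lost when each array was centred on its median over the genes tested, rather than over all probes. The means were then -0.15 for each gene (limma adjusted p = 0.274 and 0.296). Both calls were also lost with set as a random block (limma adjusted p = 0.0895 for CLV3 and 0.147 for KNU). Low ratios of CLV3 and KNU are thus ratios near the middle of all genes.

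**Figure D1:**
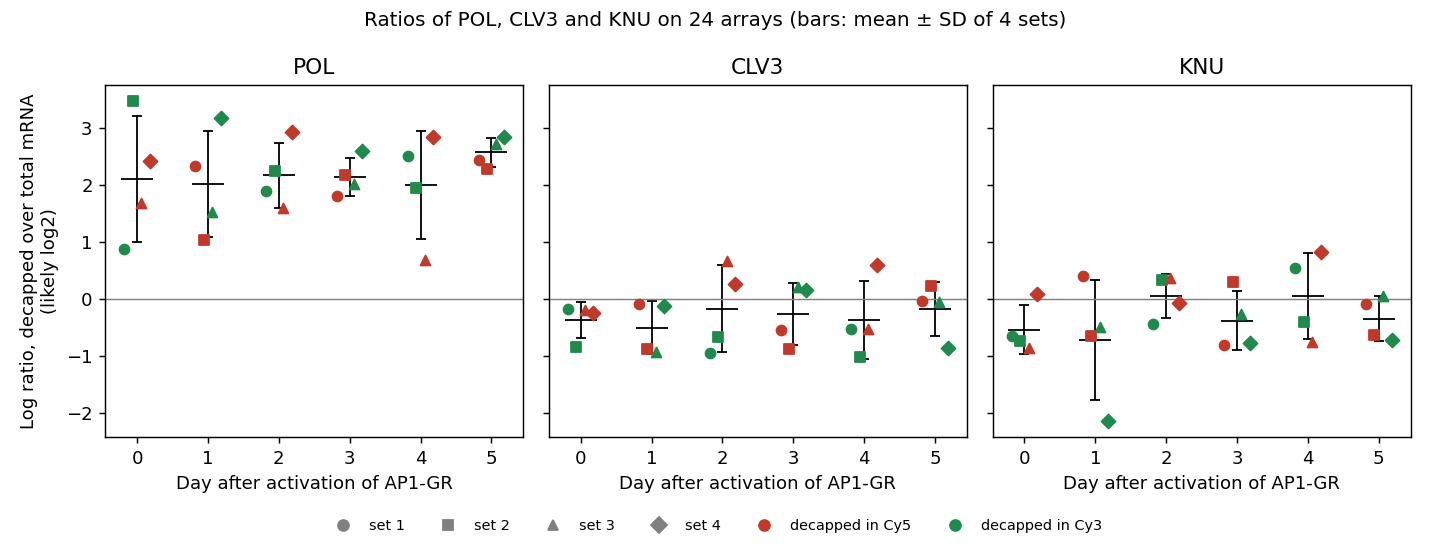
Log ratios of decapped over total mRNA (y axis, likely log2) of POL, CLV3 and KNU by day after activation of AP1-GR (x axis), with 1 point per array; shapes give the set, colours the dye of the decapped mRNA, and bars the mean ± SD of 4 sets. All 24 points of POL lie above 0, between 0.69 and 3.48, whereas those of CLV3 and KNU lie on both sides of 0 with no steady course over days.

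The rank among all genes shows the same contrast. POL had the 28th highest mean of the 10607 genes, above 99.7% of them. It belonged to the 7.23% of genes with a ratio above 0 on all 24 arrays. CLV3 stood above 44.3% of genes and KNU above 44.1%. CLV3 was below 0 on 18 arrays and above 0 on 6, and KNU was below 0 on 16 and above 0 on 8.

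**Figure D2:**
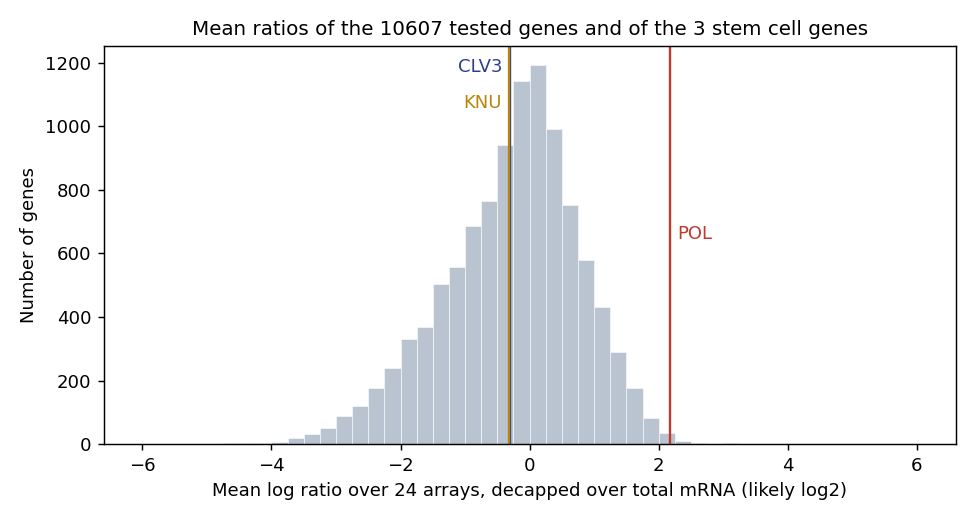
Number of genes (y axis) by mean log ratio over 24 arrays (x axis, likely log2) for the 10607 genes tested, with lines at the means of POL (2.17), CLV3 (-0.31) and KNU (-0.31). CLV3 and KNU lie almost on each other near the middle of the distribution, and POL lies at its upper edge.

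POL, the phosphatase, was above 0 in every tissue set and on every day. Sets 1 to 4 gave ratios of 0.88, 3.48, 1.68 and 2.42 on day 0, then 2.34, 1.04, 1.54 and 3.17 on day 1. Day 2 brought 1.90, 2.25, 1.61 and 2.94, while day 3 brought 1.80, 2.18, 2.02 and 2.60. The ratios of day 4 were 2.51, 1.96, 0.69 and 2.85, with 2.44, 2.29, 2.72 and 2.84 following on day 5. The lowest values were those of set 3 on day 4 and set 1 on day 0, and the values of all days overlapped. The spread among sets was widest on day 0 (SD 1.11) and narrowest on day 5 (SD 0.25), and whether it differs between days was not tested.

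POL was called higher on each single day against 0. The day means were 2.11, 2.02, 2.17, 2.15, 2.00 and 2.58 for days 0 to 5, with limma adjusted p-values between 3.2e-05 on day 5 and 0.000391 on day 4. The share of all genes called higher on a day was 11.6%, 13.7%, 14%, 12.3%, 14.1% and 18.3% for days 0 to 5. Set 4 gave the highest mean of POL over the 6 days, at 2.80 ± 0.26 (SD, n = 6), and set 3 the lowest, at 1.71 ± 0.66. Differences between sets made up 34.2% of the spread of POL, against a median of 23.6% over all genes.

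CLV3, the peptide ligand, had small ratios that were mostly below 0. Day 0 gave -0.17, -0.83, -0.19 and -0.25 in sets 1 to 4, followed by -0.08, -0.88, -0.93 and -0.11 at day 1. Ratios of -0.94, -0.67, 0.67 and 0.27 were found at day 2, with -0.54, -0.88, 0.22 and 0.16 at day 3. The last 2 days gave -0.52, -1.02, -0.52 and 0.60 (day 4) and -0.04, 0.23, -0.05 and -0.86 (day 5). All sets were below 0 on days 0 and 1, and from day 2 on each day had at least 1 set above 0. Of the 6 values above 0, 5 came from sets 3 and 4.

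The means of CLV3 by set were -0.38 ± 0.35, -0.68 ± 0.46, -0.13 ± 0.56 and -0.03 ± 0.50 for sets 1 to 4 (SD, n = 6 each), and set 2 was thus the lowest. Without set 2 the mean over days was -0.18 (limma adjusted p = 0.223), and without set 1 it was -0.28 (0.0791), so that the call was lost both times. From the 4 set means alone the gene did not pass (adjusted p = 0.154). On no single day did CLV3 pass against 0, with limma adjusted p-values between 0.169 on day 1 and 0.680 on day 2. The share of all genes called lower on a day was 27.7%, 22.2%, 19.7%, 27.1%, 23.8% and 20.8% for days 0 to 5.

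KNU, the zinc finger repressor, had ratios that were mostly below 0. Sets 1 to 4 stood at -0.65, -0.73, -0.86 and 0.09 at day 0, followed by 0.40, -0.65, -0.49 and -2.15 at day 1. Ratios of -0.44, 0.34, 0.38 and -0.07 at day 2 preceded -0.80, 0.30, -0.26 and -0.77 at day 3. The last 2 days gave 0.54, -0.40, -0.75 and 0.83 (day 4) and -0.08, -0.64, 0.06 and -0.72 (day 5). Each day held values on both sides of 0, and set 4 of day 1 was by far the lowest value of the gene. Differences between days made up 21.1% of the spread of KNU. Differences between sets made up 2.82%, against a median of 23.6% over all genes. The share between days was the largest of the 3 genes, but the limma F test over days did not pass for KNU (F = 0.99, unadjusted p = 0.45).

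On no single day did KNU pass against 0. Its day means were -0.53 ± 0.43, -0.72 ± 1.06, 0.05 ± 0.39, -0.38 ± 0.52, 0.05 ± 0.75 and -0.34 ± 0.39 for days 0 to 5 (SD, n = 4 each). The smallest limma adjusted p was 0.0804, on day 1, when 22.2% of all genes were called lower. Day 1 did pass without its array of set 1 (-1.06, adjusted p = 0.0209), without all of set 1 (-1.045, 0.0262) and with array weights (-0.94, 0.0338), while without its array of set 4 it was at -0.27 (0.612).

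The call of KNU over all days rested on single arrays. It was lost without set 2 (-0.32, limma adjusted p = 0.0983), set 3 (-0.31, 0.0637) or set 4 (-0.26, 0.0953), and from set means (0.0938). It was also lost without any 1 of 10 of the 24 arrays, with adjusted p-values of 0.0544 to 0.0723. These were set 3 of day 0 (-0.28), set 4 of day 1 (-0.24), sets 1 and 4 of day 2 (-0.29 and -0.30), sets 1 and 4 of day 3 (-0.28 and -0.30), sets 2 and 3 of day 4 (-0.29 and -0.26) and sets 2 and 4 of day 5 (-0.29 and -0.30).

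The second comparison asked whether the ratios changed as flowers formed. For none of the 3 genes did a change pass the threshold, nor did one for any of the 10607 genes (0% by the F test over days, with 1.34% at an unadjusted p under 0.05). That fit has no term for set, so differences between sets stay in its error and p-values of day differences may be too large. With set as a fixed block, the F test also called 0 of the 10607 genes. In order of their means, the days of POL ran 5, 2, 3, 0, 1 and 4, and the largest gap between neighbours in that order was 0.40 ± 0.53 (SE). The days of CLV3 ran 2, 5, 3, 0, 4 and 1, with neighbours at most 0.13 ± 0.39 apart. Those of KNU ran 4, 2, 5, 3, 0 and 1, and the largest gap there was 0.40 ± 0.45, between days 2 and 5. No pair of neighbours differed by more than its standard error.

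Of the 15 pairs of days, the largest difference was that of day 4 minus day 1 for KNU (0.77 ± 0.45, SE), of day 5 minus day 4 for POL (0.57 ± 0.53) and of day 2 minus day 1 for CLV3 (0.34 ± 0.39). Their unadjusted p-values by limma were 0.097, 0.287 and 0.405, each with an adjusted p of 1, and 0% of all genes were called in any of the 15 pairs. These differences rested on single sets: KNU was at 0.0072 without set 4 and 1.37 without set 3, POL at 0.14 without set 3 and 0.92 without set 4, and CLV3 at 0.046 without set 3 and 0.62 without set 1. Day 5 minus day 0 was 0.46 for POL (95% interval -0.63 to 1.56), 0.18 for CLV3 (-0.64 to 1.01) and 0.19 for KNU (-0.74 to 1.12), each with a limma adjusted p of 0.999. Days 1 to 4 minus day 0 gave -0.11 to 0.06 for POL, -0.14 to 0.20 for CLV3 and -0.19 to 0.59 for KNU, with limma adjusted p-values of 0.993 to 1. At an unadjusted p under 0.05 stood 3.11% of all genes for day 5 minus day 0. A rise of 1 lies within all 3 intervals of that difference, so the data do not show that the ratios stayed the same.

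Late and early days were also set against each other. The mean of days 3 to 5 minus that of days 0 to 2 was 0.14 ± 0.30 (SE) for POL, 0.07 ± 0.23 for CLV3 and 0.18 ± 0.26 for KNU, with a limma adjusted p of 1 for each and 0% of all genes called (1.54% at an unadjusted p under 0.05). The slope per day was 0.06 ± 0.08 for POL, 0.04 ± 0.06 for CLV3 and 0.08 ± 0.07 for KNU, again with 0% of genes called (2.48% unadjusted). Without set 1 the late minus early difference of POL was -0.06 and its slope -0.0095, and without set 1 of day 0 alone the difference was -0.02.

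No dye difference of the 3 genes passed the test. CLV3 averaged -0.13 ± 0.52 with decapped mRNA in Cy5 and -0.48 ± 0.46 with it in Cy3 (SD, n = 12 each), and KNU averaged -0.15 ± 0.57 and -0.47 ± 0.68. POL went the other way, with 2.02 ± 0.68 in Cy5 and 2.32 ± 0.72 in Cy3. The fitted Cy5 minus Cy3 difference was 0.34 ± 0.23 (SE) for CLV3, 0.32 ± 0.26 for KNU and -0.30 ± 0.30 for POL, with limma adjusted p-values of 0.865, 0.903 and 0.956. Over all genes 0.688% had a positive and 0.00943% a negative dye difference past the threshold.

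The 3 genes differ in length, and the median ratio of all genes differed between classes of gene span without a steady order, at -0.21, -0.38, -0.33, -0.10 and 0.17 for 5 classes of increasing span. In RefSeq's TAIR10.1 table POL spans 3928 bp and has 4 transcripts, CLV3 spans 820 bp with 3 transcripts and KNU spans 787 bp with 1. Among the 2115 genes in the class of longest span (from 3328 bp), where the median ratio was 0.17 and 44.3% of genes were called higher, POL still stood above 99.5%. CLV3 and KNU fall among the 2116 genes of shortest span (up to 1375 bp), whose median ratio was -0.21 and of which 44.4% were called lower. Within that class they stood above 45.3% and 45.0% of genes. The part of span in the ratios was not tested.

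**Figure D3:**
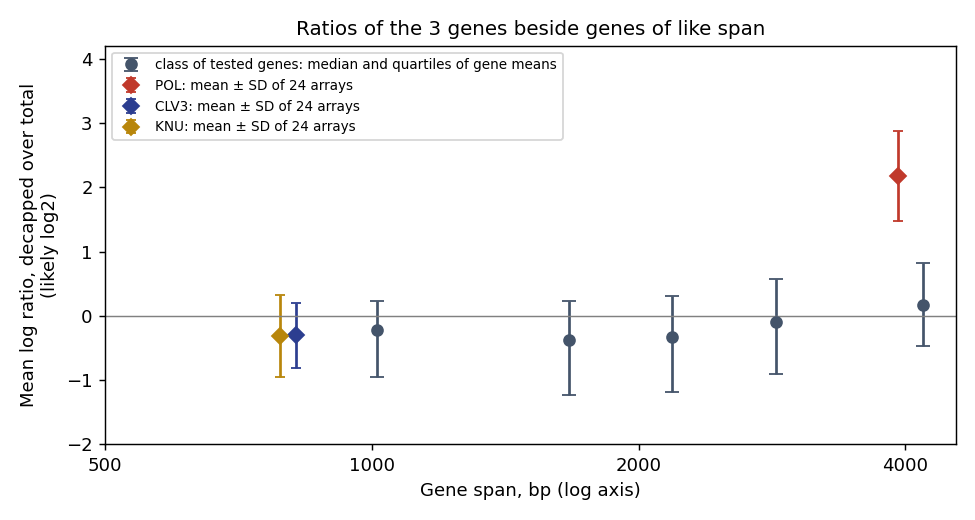
Mean log ratio (y axis, likely log2) against gene span in bp (log x axis). Circles give the median and quartiles of gene means in 5 classes of tested genes by span, at the class's median span, and diamonds the mean ± SD over 24 arrays of POL, CLV3 and KNU. CLV3 and KNU lie within the quartiles of the shortest class (-0.95 to 0.23), and POL at 2.17 lies above the upper quartile of the longest class (0.83).

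Other genes were taken from hand-written lists, matched by locus. The lists held receptors, ligands, relatives of POL, stem cell factors, regulators of floral termination and zinc finger relatives of KNU. All are called pathway genes below, though the zinc finger relatives were listed for their family. Of 53 such genes, 9 were paired with a probe and 8 could be tested. WUS itself, the receptor CLV1, the relatives of POL and the floral regulator AG were not among those paired and are not analysed here. Together with the 3 genes above, 5 of 11 were called higher and 5 lower, with a median of 0.13, against 29.7% higher, 43.5% lower and a median of -0.16 over all genes. That median of 0.13 is the value of JAG, and RBE is among the genes called lower, both being zinc finger relatives of KNU. The number called lower was 2 from set means, and 3 with each array centred, with each array centred and scaled, with set as a random block or without set 2.

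Among ligands, CLE40, a relative of CLV3 with a like peptide, was higher at 1.28 ± 0.97 (SD, n = 24, limma adjusted p = 5.1e-06). It ranged from -0.45 to 3.49 and was above 0 on 21 arrays, whereas the highest value of CLV3 was 0.67. On single days CLE40 ran from 0.70 ± 0.57 on day 5 to 1.96 ± 0.79 on day 1.

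The 2 measured co-receptor kinases of CLV signalling were also higher, and both were above 0 on all 24 arrays. AT2G23950, listed here as CIK2, stood at 1.51 ± 0.36 (limma adjusted p = 4.36e-12), with values from 1.00 to 2.55. AT5G45780, listed as CIK4, stood at 0.62 ± 0.30 (adjusted p = 1.16e-06), with values from 0.05 to 1.37. Their spread over arrays was small: the SD exceeded that of 5.02% of all genes for CIK2 and of 1.43% for CIK4, against 51.9% for POL.

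Among stem cell factors, OBE2, a PHD finger protein needed to maintain meristems, was lower at -1.71 ± 0.99 (limma adjusted p = 3.44e-07). It was below 0 on 21 arrays, and the 3 values above 0 were those of set 1 on days 1, 2 and 3. ARR15, a response regulator of cytokinin signalling that WUS represses together with its relatives, was higher at 0.81 ± 1.13 (adjusted p = 0.00427). Its values ran from -2.21 to 2.72. No single day of ARR15 passed against 0, with limma adjusted p-values between 0.112 on day 5 and 0.948 on day 3. The call of ARR15 over all days was lost without set 3 (adjusted p = 0.0585) or set 4 (0.0900).

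In floral termination, ULT1, a SAND domain protein that helps to activate AG, was lower at -2.07 ± 1.19 (limma adjusted p = 2.54e-08) and below 0 on all 24 arrays, as were 12.4% of all genes. Its values ran from -5.83 in set 2 of day 3 to -0.56 in set 1 of day 2. KNU was thus the higher of the 2 measured genes of this list. Of the 2 measured zinc finger relatives of KNU, RBE, which is needed for petal development, was lower at -0.43 ± 0.49 (adjusted p = 0.000294), and JAG, which promotes organ growth, was at 0.13 ± 0.67 and did not pass (0.403). RBE did not pass from set means (0.0631).

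**Figure D4:**
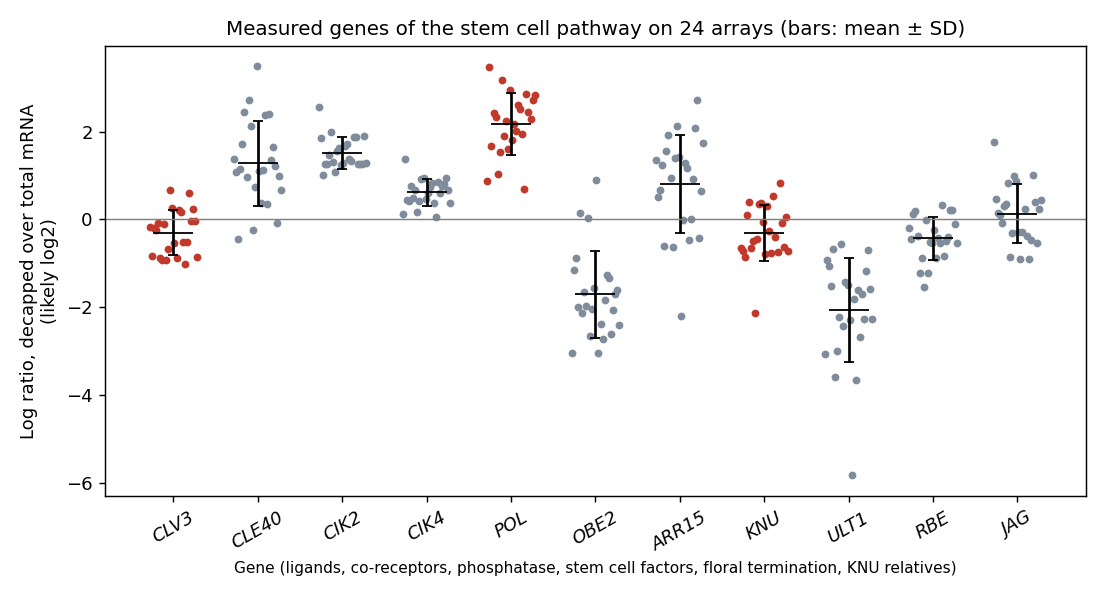
Log ratios (y axis, likely log2) of the 11 tested genes of the lists (x axis) on 24 arrays, in order of day and set within a gene. Bars give the mean ± SD, and CLV3, POL and KNU are in red. RBE and JAG were listed as zinc finger relatives of KNU. POL has the highest mean (2.17) and ULT1 the lowest (-2.07), and the means of CLV3 (-0.31), KNU (-0.31), RBE (-0.43) and JAG (0.13) lie closest to 0.

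The genes with the most similar course over the 24 arrays were sought among the 1260 other tested genes with a symbol. Before this, each array was centred on its median over the genes tested and the dye difference was removed. For POL these were ATSTE24 (Pearson r = 0.86), a protease of prenylated proteins, SEC5A (0.81), an exocyst subunit, and CLUB (0.77), a subunit of a vesicle tethering complex. Their own mean ratios were 1.12, 0.85 and 1.09, all above 0. Leaving out any 1 set kept r between 0.68 and 0.89 for the 3 genes. Of the genes without a symbol, 1 was closer to POL than ATSTE24. Over all genes tested, 5 were closer to POL than SEC5A and 21 than CLUB. Genes without a symbol that were closer than the first gene named below numbered 45 for CLV3 and 14 for KNU.

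For CLV3 the nearest genes with a symbol were GLDH (r = 0.63), the last enzyme of ascorbate synthesis, PUB25 (0.62), a ubiquitin ligase, and UGLYAH (0.62), an enzyme of ureide breakdown, with mean ratios of 0.89, 0.12 and 0.60. For KNU they were SAMBA (0.61), a regulator of the anaphase-promoting complex, VPS24.2 (0.60), an ESCRT-III protein, and AVA-P1 (0.59), a vacuolar proton pump subunit, with mean ratios of -1.05, -0.05 and -3.14. Without 1 set these values of r fell as low as 0.47. These are descriptions over arrays that share sets, and the highest of many correlations is large by selection.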

How the data were processed

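Members and lists were chosen with earlier results of these data known. The authors deposited 1 table of 26102 probes on 24 arrays, with values of -10.53 to 10.07 that were taken to be log2 ratios, with base, direction, background correction and normalization not given in the sources used here. All arrays correlated above 0 (r 0.20 to 0.83), so the table had been turned 1 way. On each day 770 to 4424 probes held the same 4 values, which were read as no measurement and removed. Only the most common such set of values on a day was removed. Counting these, 3831 to 5397 probes a day shared their values with another probe, so other shared values may remain among the genes tested. The platform annotation paired 13960 probes with 1 gene, 0 with several and left 12142 unnamed. Of the named probes, 13912 matched a RefSeq (TAIR10.1) gene. Probes of a gene were averaged, and genes with at least 2 values on each day were kept.

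limma 3.58.1 (R 4.3.3; Python 3.11.15 for the tables, using numpy 2.4.6 and pandas 2.3.3) was fitted per gene over all 24 arrays with day means and a dye term. Two-sided tests were adjusted by Benjamini-Hochberg over the 10607 genes at 0.05. The median 95% half-width was 0.30 for the mean over days and 1.02 for a difference of 2 days, so the number of arrays limits the precision. Depth has no meaning for these ratios, and signal over background is unknown. The fit was also run on simulated normal values that were independent between arrays. Those values held no set effect, so the run cannot show how the fit behaves on arrays that share sets. Alternatives were a set block (fixed and random), set means, centring, scaling, no dye term, array weights, shared values kept, a filter on weak ratios (mean absolute ratio at least 0.5), fits on single days, and leaving out each set and each array; the largest of the 15 pairs of days was chosen after seeing the data. Named genes were the 3 members, all measured genes of the hand-written lists, and the 3 genes with a symbol most correlated with each member. All sample columns were used and 0 left out.

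Arrays with the same set number and different days had deviations that correlated at a median of 0.23 (43 of 60 pairs over 0.1), and 21 of 24 arrays correlated best with their own set. The 24 arrays are thus not fully independent, and p-values of the mean over days are likely too small. Those of day differences may be too large, as the main fit has no term for set. From set means alone the limma adjusted p was 0.000827 for CIK2, 0.00102 for ULT1, 0.00173 for OBE2, 0.00418 for CLE40, 0.0137 for CIK4 and 0.0391 for ARR15.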

Additional observations from a re-analysis of the deposited data

Results flagged for a closer look

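Each group of 4 arrays of 1 day was checked for a set far from the other 3, in the 3 genes and the 8 other pathway genes. Of 66 groups 4 had such a set, and chance gives about 1 in 20. CLV3 on day 0 was at -0.83 in set 2, with the other sets between -0.25 and -0.17. CIK2 on day 5 was at 1.90 in set 3, with the others between 1.25 and 1.28. CLE40 on day 0 was at -0.45 in set 3, with the others between 1.09 and 1.38. OBE2 on day 3 was at 0.91 in set 1, with the others between -3.05 and -2.38. The causes were not tested.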

How the results depend on the processing

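POL kept its direction and its call over all days, and on each day, in every alternative run, with means over days from 1.96 to 2.41. The lower calls of CLV3 and KNU were lost with set as a random block (-0.31 for each; correlation 0.165), from set means (-0.31 for each), with centring (-0.15 for each) and with scaling (-0.20 and -0.16). Centring used the median of the genes tested on each array and was also part of scaling. It takes the median of the gene means, -0.16, to about 0. With set as a random block and from set means the estimate of CLV3 did not change, while its SE rose from 0.11 to 0.15 and 0.16. The cause of the losses was not tested. With set as a fixed replicate block the mean over days was -0.31 for CLV3 (limma adjusted p = 0.0137), -0.31 for KNU (0.0426) and 2.17 for POL, and no call of the 3 genes changed. CLV3 could not be tested under the filter on weak ratios, which left it out. Leaving out 1 set or array gave -0.40 to -0.18 for CLV3 and -0.37 to -0.24 for KNU over all days. The genes of the pathway called lower numbered 3 with centring, scaling and the random block, 2 from set means, and 3 to 5 without 1 set or array, against 5. With array weights KNU passed on day 1 (-0.94) and was at -0.094 on day 4, and POL was at -0.034 for late minus early days. Differences from day 0, none of which passed in any setting (lowest adjusted p 0.576 over all pairs of days tried), changed sign in 11 cases. With array weights these were CLV3 on day 1 (0.021), POL on days 2 (-0.169) and 3 (-0.177) and KNU on day 3 (-0.0546). With centring they were POL on days 2 (-0.0167) and 3 (-0.0021). With scaling they were CLV3 on day 3 (-0.0396), POL on days 1 (0.157), 3 (-0.00148) and 4 (0.0738) and KNU on day 3 (-0.00483). Leaving out 1 set or array turned further uncalled values. Against 0, CLV3 ran from -0.40 to 0.046 on day 2, -0.49 to 0.017 on day 3 and -0.29 to 0.00265 on day 5, and KNU from -0.106 to 0.17 on day 2 and -0.22 to 0.447 on day 4, while KNU on day 1 ran from -1.06 to -0.228. Against day 0, CLV3 ran from -0.337 to 0.0563 on day 1, -0.0395 to 0.517 on day 2, -0.138 to 0.379 on day 3 and -0.289 to 0.165 on day 4. POL ran from -0.806 to 0.687, -0.431 to 0.489, -0.456 to 0.478, -0.695 to 0.356 and -0.103 to 1.01 on days 1 to 5. KNU ran from -0.616 to 0.533 on day 1, -0.24 to 0.528 on day 3 and -0.298 to 0.56 on day 5. Late minus early days ran from -0.019 to 0.167 for CLV3 and -0.062 to 0.283 for POL, the slope of POL from -0.0095 to 0.12 and the dye difference of KNU from -0.102 to 0.738. Single genes here rest on 1 probe each.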

Other observations

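OBE1, a PHD finger relative of OBE2 that acts with it in meristems, held the shared value on 4 of the 6 days and was not tested. On the 2 days with its own values it ran from -0.02 to 0.50. It was at 0.49, 0.03, -0.02 and 0.50 in sets 1 to 4 on day 3, and at 0.06, -0.02, 0.10 and 0.23 on day 4. OBE2 on the same days was at 0.91, -3.05, -2.38 and -2.72, and at -1.83, -1.27, -1.34 and -2.62.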
